A study of Mus musculus with 18 samples.

Results

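The hepatic carboxylesterases and arylacetamide deacetylase (Aadac) were followed as 10 transcripts, picked by gene symbol from the 33235 genes of each table: Ces1d, Ces1e, Ces1f, Ces1g, Ces2a, Ces2c, Ces2e, Ces3a, Ces3b and Aadac. All 10 passed the filter on low values on both diets. The livers came from mice given a GalNAc-linked antisense oligonucleotide (ASO) against Mdm2, labelled MDM2 knockdown, or a GalNAc-linked control ASO, labelled WT, on a diet labelled HFHC or one labelled CDAHFD. GalNAc is a sugar that the asialoglycoprotein receptor of hepatocytes takes up, and the Mdm2 protein ubiquitinates p53, which leads to its breakdown. The comparisons used 3 Mdm2 ASO and 4 control ASO libraries on HFHC, and 5 Mdm2 ASO and 5 control ASO libraries on CDAHFD. All groups therefore share the GalNAc carrier and a diet used to induce fatty liver, and no untreated or chow-fed group was analysed here. Strain, sex, age, dose and time of treatment are not given in the sources used here. The labels do not say that each sample is a separate animal, so p-values measure the spread between these samples.

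Carboxylesterases are serine hydrolases that split ester, amide and thioester bonds. Most of those made by hepatocytes are held in the lumen of the endoplasmic reticulum, where they hydrolyse drugs and esters and release fatty acids from stored triglyceride for secretion in very-low-density lipoprotein (VLDL) or for oxidation. In the mouse the family has expanded by tandem duplication into a cluster on chromosome 8, so that 1 human gene can have several mouse counterparts. Aadac lies on chromosome 3, has its catalytic domain in the lumen of the endoplasmic reticulum and is related to hormone-sensitive lipase.

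The ASO's target was lower in every Mdm2 ASO library than in any control library. Mdm2 averaged 362 ± 58.2 TMM-normalized counts in Mdm2 ASO livers and 945 ± 25.6 in control livers on HFHC (SD, n = 3 and 4), and 647 ± 124 against 1565 ± 87.7 on CDAHFD (SD, n = 5 each). Libraries held 17.77 to 18.8 M reads on HFHC and 22.38 to 31.45 M on CDAHFD. The HFHC columns of Mdm2 ASO replicates 6 and 7 hold the same value for each of the 33235 genes, so they enter once, as replicate 6-7. Levels below are TMM-normalized counts, which are read counts divided by 1 factor per library. Fold changes are Mdm2 ASO over control ASO on the scale log2(value + 0.5), fitted with limma over all genes tested. A gene rose or fell where its Benjamini-Hochberg adjusted p was under 0.05.

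On HFHC, 1 of the 10 members rose (Ces2e) and 1 fell (Ces2c), where 16.8% of all genes tested rose and 13.8% fell. On CDAHFD, 3 rose (Ces2e, Ces2a and Ces3b), where 6.12% of all genes rose and 6.86% fell. The limma test called 0 members lower on CDAHFD, with 0 at an unadjusted p under 0.05 in that direction and 0 by edgeR or DESeq2. The median log2 fold change of the 10 members was -0.19 on HFHC and 0.36 on CDAHFD, beside -0.01 and -0.002 for all genes tested. The members' summed share of all reads was 0.346% ± 0.0195 in Mdm2 ASO and 0.332% ± 0.0343 in control livers on HFHC (SD, n = 3 and 4). On CDAHFD it was 0.358% ± 0.0459 in Mdm2 ASO and 0.269% ± 0.0177 in control livers (SD, n = 5 each), and the groups, at 0.292% to 0.418% and 0.245% to 0.286%, did not overlap. As TMM-normalized counts the sums on CDAHFD did overlap, at 74401 to 101402 in Mdm2 ASO and 54223 to 75004 in control livers. This is bulk liver RNA, in which fewer hepatocytes and less transcript per hepatocyte cannot be told apart.

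**Figure D1:**
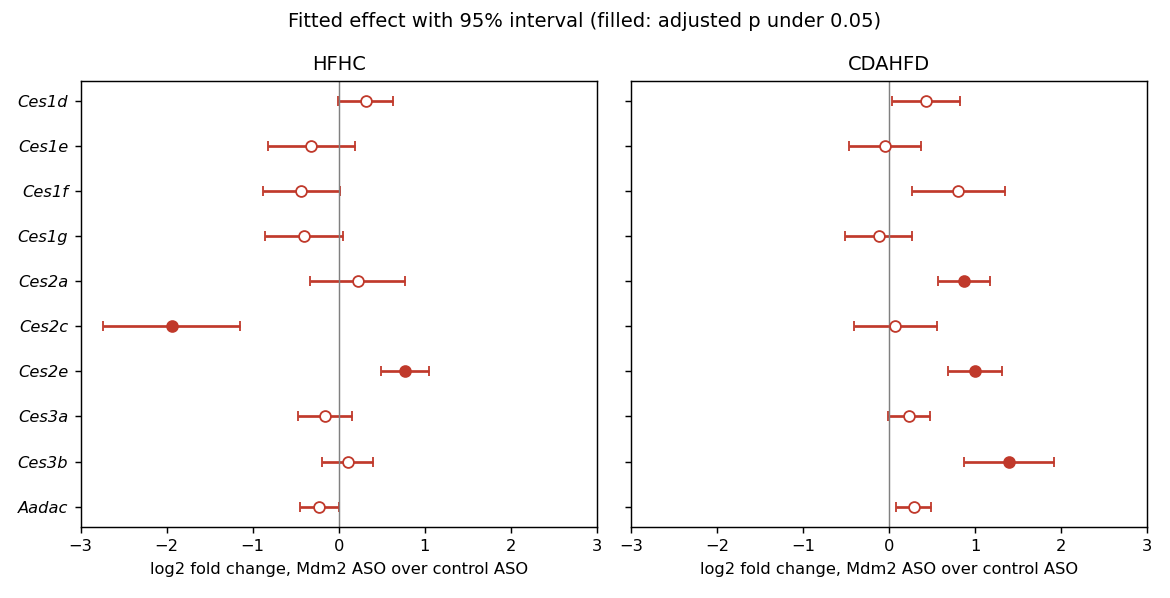
Fitted log2 fold change of each member, Mdm2 ASO over control ASO, on HFHC (left) and CDAHFD (right), with 95% intervals. Filled points have an adjusted p under 0.05: Ces2c at -1.94 and Ces2e at 0.77 on HFHC, and Ces2a at 0.87, Ces2e at 1.00 and Ces3b at 1.39 on CDAHFD.

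Per kilobase of exon (gene models of GENCODE M21 on GRCm38), the 10 genes spanned a wide range of levels. Ces3a was the highest in each group, at 9816 ± 604 counts per kb in Mdm2 ASO and 10983 ± 1444 in control livers on HFHC, and at 16065 ± 1452 and 13737 ± 1347 on CDAHFD. Ces2c was the lowest in Mdm2 ASO livers on HFHC and in control livers of both diets, at 78.4 ± 44.4 in Mdm2 ASO and 264 ± 17.2 in control livers on HFHC, and at 434 ± 191 and 389 ± 61.2 on CDAHFD. In Mdm2 ASO livers on CDAHFD it lay beside Ces1e, at 419 ± 61.1, a difference within their spread.

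Between these ends, control livers on HFHC ran in the order Ces1d (4090 ± 731 counts per kb), Aadac (3757 ± 402), Ces1g (1763 ± 459), Ces1f (1732 ± 303), Ces2e (1136 ± 58.2), Ces1e (1099.96 ± 298), Ces2a (948 ± 323) and Ces3b (730.5 ± 117). The mean ± SD ranges of neighbours overlapped in this order, apart from those of Aadac and Ces1g and of Ces1f and Ces2e. In Mdm2 ASO livers on HFHC, Ces2e, at 1967 ± 388, stood above the means of Ces1g (1317 ± 270.4) and Ces1f (1307 ± 366) as well. In Mdm2 ASO livers on CDAHFD, Aadac (6086 ± 745) and Ces3b (4030.0 ± 1687) followed Ces3a, and Ces2e (2945 ± 455) stood above Ces1d (2369 ± 675) and Ces1g (1834 ± 411). In control livers on CDAHFD, Ces3b (1448 ± 319) was instead close to Ces2e (1482 ± 290.3) and Ces1d (1744 ± 402). The tables of the diets were scaled separately, so levels were not tested across them.

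The Ces2 genes encode hydrolases of small alcohol esters, drugs and acylglycerols, and the 3 members lie near each other on the chromosome. Ces2e, whose product hydrolyses tri- and diacylglycerol in mouse liver, rose on both diets. On HFHC it had 5291, 4272 and 6367 counts in Mdm2 ASO replicates 6-7, 9 and 10, against 3126, 3261, 2958 and 2922 in control replicates 1, 2, 4 and 5. All Mdm2 ASO libraries were above all controls, a 1.71-fold rise (log2 0.77, SE 0.12, limma adjusted p = 0.00139). On CDAHFD it had 8729.9, 9192, 7772, 8061 and 5992 counts in Mdm2 ASO replicates 6 to 10, against 4802, 4373, 2737, 4234 and 3851 in control replicates 1 to 5. Again the groups did not overlap, with a 2.00-fold rise (log2 1.00, SE 0.15, limma adjusted p = 0.00106).

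Ces2c, a triglyceride hydrolase of mouse liver and intestine, fell on HFHC and did not pass on CDAHFD. On HFHC it had 74.1, 188 and 278 counts in Mdm2 ASO replicates 6-7, 9 and 10, against 634, 648, 577 and 569.6 in the controls. The highest Mdm2 ASO library was below the lowest control, and the level was 0.26 times that of the controls (log2 -1.94, SE 0.35, limma adjusted p = 0.00288). On CDAHFD it had 724, 700.2, 662, 1659.9 and 1237 counts in Mdm2 ASO replicates 6 to 10, against 1020.3, 991, 669, 855 and 931 in the controls. The Mdm2 ASO libraries lay on both sides of the controls (log2 0.07, 95% interval -0.41 to 0.55, adjusted p = 0.871), with replicates 9 and 10 above every control.

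Ces2a, a hydrolase of acylglycerols and drugs in mouse liver, rose on CDAHFD. It had 2508, 2520.5, 2223, 2196 and 1926 counts in Mdm2 ASO replicates 6 to 10, against 1740.1, 1378, 939, 1231 and 1048 in the controls. No Mdm2 ASO library was as low as a control, and the rise was 1.83-fold (log2 0.87, SE 0.14, limma adjusted p = 0.00179). On HFHC the groups overlapped, at 2145, 2344 and 3065 counts in Mdm2 ASO and 1391, 3167, 2468 and 1915 in control livers (log2 0.22, 95% interval -0.33 to 0.77, adjusted p = 0.536).

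The promoters of these 3 genes are shown because they lie in 1 stretch of the cluster, and Ces2e rose on HFHC while Ces2c fell there. Each line gives the 250 bases before the RefSeq start on GRCm38.p6, 5′ to 3′, with matches to the motifs searched in capitals.
Ces2e (chr8:104926010-104926259, + strand): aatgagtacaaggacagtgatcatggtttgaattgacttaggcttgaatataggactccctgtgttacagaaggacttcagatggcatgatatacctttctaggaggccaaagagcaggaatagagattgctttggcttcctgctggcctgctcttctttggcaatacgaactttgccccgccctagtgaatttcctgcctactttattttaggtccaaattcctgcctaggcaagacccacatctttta
Ces2c (chr8:104846818-104847067, + strand): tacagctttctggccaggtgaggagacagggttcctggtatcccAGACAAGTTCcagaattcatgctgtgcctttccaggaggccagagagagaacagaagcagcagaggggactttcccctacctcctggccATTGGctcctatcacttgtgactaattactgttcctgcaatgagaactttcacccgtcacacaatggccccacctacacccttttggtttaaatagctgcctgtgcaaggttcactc
Ces2a (chr8:104733753-104734002, + strand): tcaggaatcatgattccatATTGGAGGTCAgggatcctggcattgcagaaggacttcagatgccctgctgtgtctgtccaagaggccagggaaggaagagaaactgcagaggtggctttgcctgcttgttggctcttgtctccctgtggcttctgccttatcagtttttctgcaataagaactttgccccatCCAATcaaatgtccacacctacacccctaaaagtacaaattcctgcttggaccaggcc
Ces2c and Ces2a were 65.0% identical over these bases, and Ces2e was 52.7% identical to Ces2c and 53.2% to Ces2a. The motifs, searched on both strands, were counted over 32851 promoters of this length. The nuclear receptor motif AGGTCA was found in 14.0% of them. The FOXA motif TGTTTAC was found in 3.17% and the E-box CACGTG in 6.02%. The CCAAT box was found in 33.8% and the TATA box, searched as TATAAA, in 12.4%. The antioxidant response element TGACNNNGC was found in 10.2%, and the consensus decamer of p53, given by name alone, in 7.13%. Ces2a held AGGTCA at -226 to -221, directly beside an inverted CCAAT at -231 to -227, and a second CCAAT at -58 to -54. Ces2c held an inverted CCAAT at -117 to -113 and a match to the p53 decamer at -206 to -197. Ces2e held no match to these letters. A match is a description of the sequence, and no binding was measured.

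**Figure D2:**
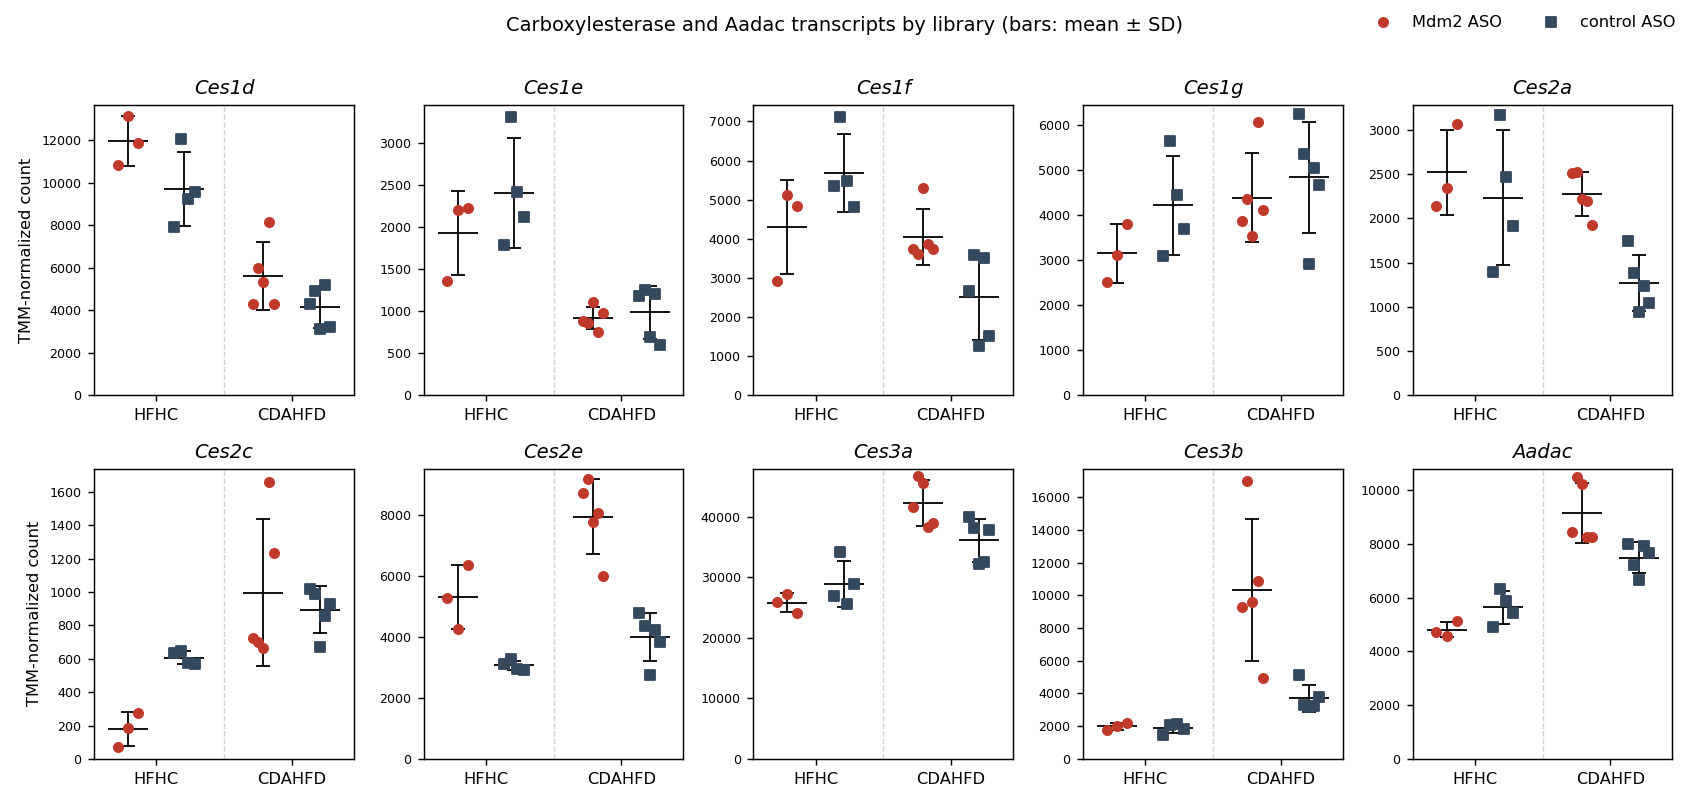
TMM-normalized counts of each member by library, with each axis from 0. Red circles are Mdm2 ASO, blue squares are control ASO, bars are mean ± SD, and the diets were scaled separately. Ces2e stands apart by group on both diets, Ces2c on HFHC and Ces2a on CDAHFD. Aadac and, by a narrow margin, Ces1f also stand apart on CDAHFD, without a call there. Ces3b on CDAHFD runs from 4938 to 16958 in Mdm2 ASO livers.

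Within a library, the ratio of Ces2e to Ces2c does not depend on scaling. On HFHC its log2 value was 6.16, 4.50 and 4.52 in Mdm2 ASO replicates 6-7, 9 and 10, against 2.30 to 2.36 in the 4 control libraries. On CDAHFD it was 3.59, 3.71 and 3.55 in Mdm2 ASO replicates 6, 7 and 8, and 2.28 in replicates 9 and 10, against 2.03 to 2.31 in the 5 control libraries. The control libraries kept a nearly fixed ratio, and Mdm2 ASO replicates 9 and 10 on CDAHFD lay within the range of their controls.

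**Figure D3:**
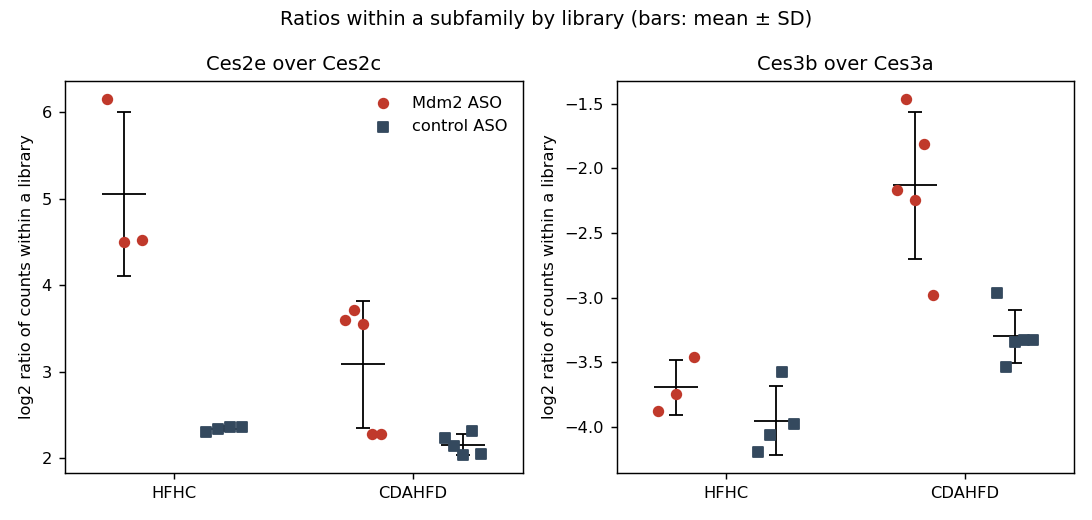
Log2 ratio of counts within each library for Ces2e over Ces2c (left) and Ces3b over Ces3a (right), with mean ± SD bars. For Ces2e over Ces2c, Mdm2 ASO livers averaged 5.06 ± 0.95 and control livers 2.34 ± 0.03 on HFHC, and 3.08 ± 0.74 against 2.15 ± 0.12 on CDAHFD.

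Ces3a and Ces3b are adjacent genes for microsomal carboxylesterases of mouse liver. Ces3b rose on CDAHFD and Ces3a did not pass. Ces3b had 9279, 16958, 9614, 10896 and 4938 counts in Mdm2 ASO replicates 6 to 10, against 5116, 3282, 3162, 3240.2 and 3771 in the controls. Replicate 10 was below the highest control, so the groups overlapped, and the rise was 2.63-fold (log2 1.39, SE 0.24, limma adjusted p = 0.00269). On HFHC it had 1771, 2036 and 2196.5 counts in Mdm2 ASO and 1468, 2049, 2143 and 1835 in control livers, which overlapped (log2 0.10, 95% interval -0.20 to 0.40, adjusted p = 0.593). Ces3a had 41577, 46739, 45513, 38245 and 38947 counts in Mdm2 ASO livers on CDAHFD, against 39951, 38054, 32107, 32537 and 37779.9 in the controls (log2 0.23, 95% interval -0.02 to 0.47, adjusted p = 0.21). On HFHC it had 24122 to 27281 counts in Mdm2 ASO and 25544 to 34176 in control livers (log2 -0.16, adjusted p = 0.44).

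The log2 ratio of Ces3b to Ces3a on CDAHFD averaged -2.13 ± 0.57 in Mdm2 ASO and -3.30 ± 0.21 in control livers (SD, n = 5 each). Their ranges, -2.98 to -1.46 and -3.54 to -2.97, met at Mdm2 ASO replicate 10. On HFHC it averaged -3.69 ± 0.21 in Mdm2 ASO and -3.95 ± 0.27 in control livers (SD, n = 3 and 4). Ces3b made up 11.5% ± 3.63 of the members' summed counts in Mdm2 ASO and 5.62% ± 0.842 in control livers on CDAHFD, and 3.23% ± 0.188 against 2.93% ± 0.422 on HFHC.

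The Ces3b promoter is shown as that of the member with the highest fold change on CDAHFD, by the same rules as above.
Ces3b (chr8:105083505-105083754, + strand): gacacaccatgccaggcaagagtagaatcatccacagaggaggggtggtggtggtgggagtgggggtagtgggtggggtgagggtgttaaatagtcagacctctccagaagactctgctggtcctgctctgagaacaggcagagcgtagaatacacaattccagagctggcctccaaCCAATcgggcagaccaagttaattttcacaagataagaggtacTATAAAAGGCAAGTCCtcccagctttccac
It held CCAAT at -73 to -69, TATAAA at -30 to -25 and, next to it, a match to the p53 decamer at -24 to -15. Of the 10 members, 7 are in the RefSeq promoter table. The other promoters in the table, of Ces1e, Ces1g and Aadac, held no match to the nuclear receptor or p53 motif.

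Of the 4 Ces1 members, 0 passed on either diet with limma or edgeR, and DESeq2 called 1, Ces1f on CDAHFD (adjusted p = 0.0302). At an unadjusted p under 0.05, limma had 0 on HFHC and 2 on CDAHFD, Ces1d and Ces1f. Ces1d, known in the mouse as triacylglycerol hydrolase and needed there for normal VLDL secretion, had 10812, 13141 and 11889 counts in Mdm2 ASO and 7913, 12056, 9216 and 9576 in control livers on HFHC (log2 0.31, 95% interval -0.01 to 0.64, adjusted p = 0.13). It passed on HFHC with quantile normalization, with library size scaling and without control replicate 2 (log2 0.48, 0.42 and 0.42, limma adjusted p = 0.00848, 0.0282 and 0.0312). On CDAHFD it had 4271 to 8159.5 counts in Mdm2 ASO and 3109.9 to 5176 in control livers (log2 0.43, adjusted p = 0.14).

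Ces1f, a close relative of Ces1d, had 3730.3, 3599.6, 5306, 3871 and 3735 counts in Mdm2 ASO replicates 6 to 10 on CDAHFD, against 2668, 3589, 1258, 3504 and 1509.6 in the controls. The groups did not overlap, by a narrow margin, and the test missed the threshold (log2 0.80, SE 0.25, limma adjusted p = 0.0515). It passed without control replicate 2 or 4, at log2 0.96 in both (limma adjusted p = 0.0332 and 0.0315), and under 5 other settings: quantile normalization, library size scaling, scaling to secreted hepatocyte genes, DESeq2 and 1 fit over both diets. On HFHC it had 2916, 5131 and 4832.5 counts in Mdm2 ASO and 5348, 7122, 5465 and 4825 in control livers (log2 -0.43, adjusted p = 0.133).

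Ces1g, whose loss in mouse liver raises lipid synthesis, had 2514 to 3805 counts in Mdm2 ASO and 3076 to 5624 in control livers on HFHC (log2 -0.40, 95% interval -0.86 to 0.05, adjusted p = 0.163), and 3535 to 6049.8 against 2899.9 to 6241 on CDAHFD (log2 -0.12, adjusted p = 0.704). Ces1e, or egasyn, which holds beta-glucuronidase in the endoplasmic reticulum, had 1358 to 2228 counts in Mdm2 ASO and 1791 to 3309 in control livers on HFHC (log2 -0.32, adjusted p = 0.317). On CDAHFD it had 749 to 1108 counts in Mdm2 ASO and 593 to 1247 in control livers (log2 -0.05, adjusted p = 0.901). Neither gene had groups apart on either diet.

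Aadac had 8430.4, 10490, 10215, 8269.6 and 8269 counts in Mdm2 ASO replicates 6 to 10 on CDAHFD, against 7998, 7220.1, 6648, 7934 and 7642 in the controls. Every Mdm2 ASO library was above every control, yet the test missed the threshold (log2 0.28, SE 0.10, limma adjusted p = 0.0674), and it passed with DESeq2 and in 1 fit over both diets (adjusted p = 0.0252 and 0.0385). On HFHC it had 4729.6, 4564 and 5121 counts in Mdm2 ASO and 4916, 6333, 5863 and 5442 in control livers (log2 -0.23, 95% interval -0.45 to -0.002, adjusted p = 0.119). There the Mdm2 ASO libraries lay at the low end of the controls, with an overlap of 1 library.

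The difference between the diets was tested over 17 libraries, with the effect on HFHC subtracted from that on CDAHFD. It was above 0 and past the threshold for 4 members, Ces2c, Ces3b, Aadac and Ces1f, where 9.83% of all genes tested were called above 0 and 13.6% below 0. The limma test called 0 members below 0, with 0 below and 6 above at an unadjusted p under 0.05, and edgeR and DESeq2 called 0 below as well. All 10 fitted differences were above 0, apart from that of Ces1d under quantile normalization, library size scaling, the replicate block and without CDAHFD Mdm2 ASO replicate 9. The median over the members was 0.44, beside 0.01 for all genes tested. Ces2c differed by 2.02 (SE 0.45, limma adjusted p = 0.00284), with a fall on HFHC and no call on CDAHFD. Ces3b differed by 1.29 (SE 0.35, limma adjusted p = 0.0119), with a rise on CDAHFD and no call on HFHC.

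Aadac and Ces1f differed by 0.51 (SE 0.14, limma adjusted p = 0.0143) and 1.24 (SE 0.39, limma adjusted p = 0.0276) without a call on either diet. The Ces1f difference missed the threshold without HFHC control replicate 2, HFHC Mdm2 ASO replicate 6-7 or CDAHFD Mdm2 ASO replicate 8, at adjusted p = 0.0571, 0.0949 and 0.0502 by limma. The Aadac difference missed it when libraries were scaled to secreted hepatocyte genes (adjusted p = 0.057). Ces2e, called on both diets, had a difference of 0.23 (95% interval -0.24 to 0.69, adjusted p = 0.505). Ces2a, called on CDAHFD alone, had a difference of 0.65 (95% interval 0.04 to 1.26, adjusted p = 0.119), so its effects are not shown to differ between diets. The others that missed the threshold were Ces3a, with a difference of 0.38 (adjusted p = 0.117), Ces1g at 0.28 (adjusted p = 0.56), Ces1e at 0.27 (adjusted p = 0.611) and Ces1d at 0.12 (adjusted p = 0.81, limma). DESeq2 called Ces3a (adjusted p = 0.0269), and Ces2a passed without HFHC control replicate 1 (limma adjusted p = 0.0246).

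**Figure D4:**
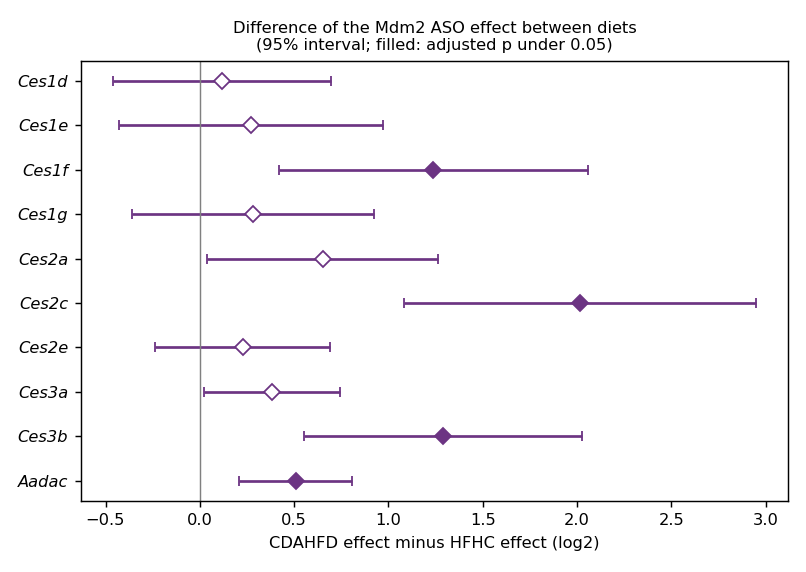
Difference of the Mdm2 ASO effect between diets for each member (CDAHFD effect minus HFHC effect, log2), with 95% intervals. Filled points have an adjusted p under 0.05: Ces1f at 1.24, Ces2c at 2.02, Ces3b at 1.29 and Aadac at 0.51.

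The rest of the family lies in the same cluster, in the order Ces1a to Ces1h, Ces5a, Ces2a, Ces2b, Ces2c, the pseudogene Ces2d-ps, Ces2e to Ces2h, Ces3a, Ces3b and Ces4a. Of the 10 carboxylesterase genes outside the members, 7 passed the filter on each diet. On HFHC, 1 of these rose, Ces4a, at 15.3 ± 7.80 counts in Mdm2 ASO and 4.74 ± 1.26 in control livers (SD, n = 3 and 4), a call lost without Mdm2 ASO replicate 10 (adjusted p = 0.0933). On CDAHFD 2 rose. Ces1b, next to Ces1c, averaged 4097 ± 517 counts in Mdm2 ASO and 2686.5 ± 509.9 in control livers (SD, n = 5 each), with no overlap (log2 0.62, limma adjusted p = 0.00852). Ces2b, between Ces2a and Ces2c, averaged 6.74 ± 4.16 and 0.586 ± 0.539 counts, too few reads for a fold. Ces1c, which encodes an esterase secreted into mouse plasma, averaged 31043 ± 4534 counts in Mdm2 ASO and 27602 ± 8407 in control livers on HFHC, and 34212 ± 2600.2 against 34380.2 ± 6974 on CDAHFD. Ces2g averaged 749.6 ± 62.4 and 816 ± 60.1 on HFHC, and 1038 ± 178 and 1125 ± 199 on CDAHFD. Neither Ces1c nor Ces2g passed on either diet.

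**Figure D5:**
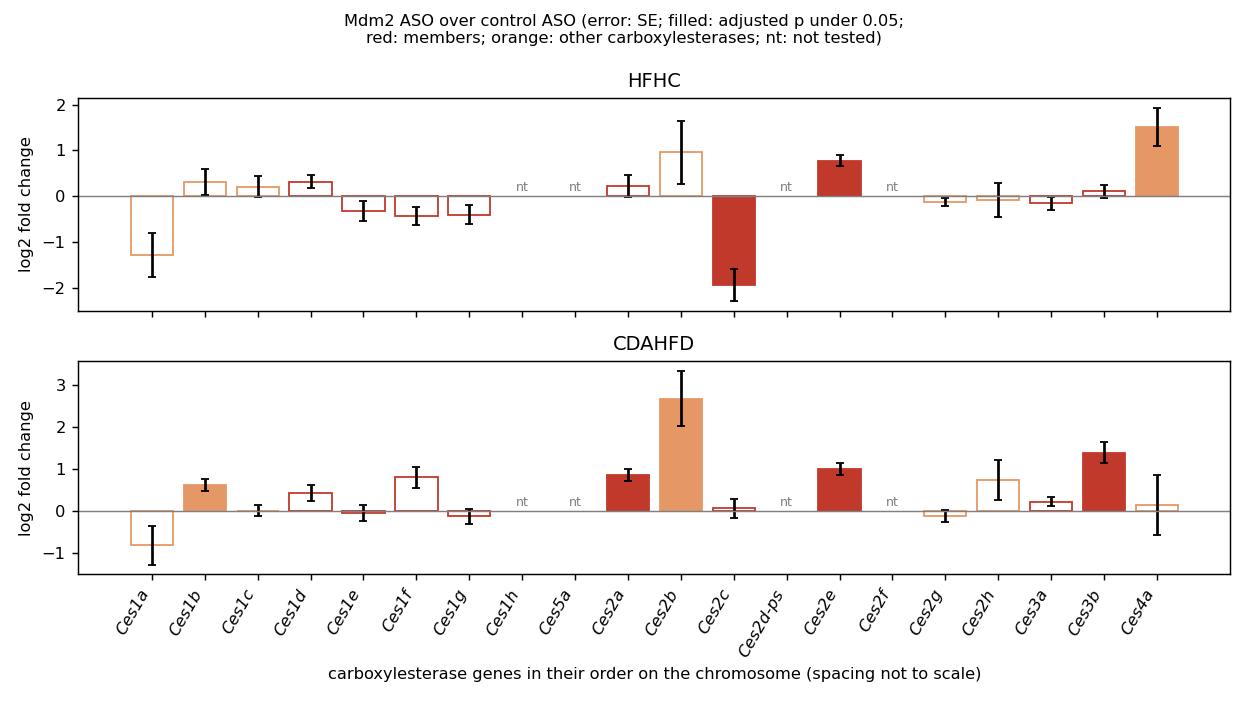
Log2 fold change, Mdm2 ASO over control ASO, of the carboxylesterase genes in their order on the chromosome, on HFHC (top) and CDAHFD (bottom), with SE bars. Members are red and the others orange, filled bars have an adjusted p under 0.05, and nt marks genes not tested. Ces2c at -1.94 and Ces2e at 0.77 face opposite ways on HFHC.

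Reads of near-identical genes can be split or lost in counting, so the members' transcripts were compared with all others of GENCODE M21. Ces2c shared 16.0% of its 100-base windows with other genes, mostly Ces2d-ps, and Ces2a shared 10.7%, with the pseudogene Gm7208. Ces3a shared 9.09% and Ces3b 7.68%, each with the other, and the remaining 6 members shared 0%. Gm7208 had at most 0.957 counts in any Mdm2 ASO and 1.12 in any control library, and Ces2d-ps was not analysed here. With 50-base windows the shares were 42.2% for Ces2c, 30.9% for Ces3a, 26.1% for Ces3b, 22.2% for Ces2a, 1.28% to 3.36% for Ces2e and the Ces1 members, and 0% for Aadac. The read length is not given in the sources used here, and the values of Ces2c, Ces2a, Ces3a and Ces3b are uncertain.

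Among the relatives of Aadac, 3 of 6 were tested. Lipe, hormone-sensitive lipase, rose on HFHC, at 438 ± 14.0 counts in Mdm2 ASO and 311 ± 31.6 in control livers (log2 0.50, limma adjusted p = 0.00445). Afmid, arylformamidase, rose on CDAHFD, at 688 ± 73.7 and 391.8 ± 92.7 counts (log2 0.84, limma adjusted p = 0.00269). Nceh1, a neutral cholesterol ester hydrolase, did not pass on either diet. Aadacl2, Aadacl3 and Aadacl4 were at 0 in every library.

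Other ester and epoxide hydrolases of the liver were read as a list of 9, of which 5 fell on HFHC, while 1 rose and 1 fell on CDAHFD. Beside this list and those below, 16.8% of all genes tested rose and 13.8% fell on HFHC. On CDAHFD these shares were 6.12% and 6.86%. For the hydrolases, the counts stand with the medians that follow. The median log2 fold change of the 9 hydrolases was -0.32 on HFHC and 0.02 on CDAHFD. Ephx1, microsomal epoxide hydrolase, rose on CDAHFD (log2 0.46, adjusted p = 0.02) and fell on HFHC (log2 -0.38, adjusted p = 0.0347, limma). Its HFHC call was lost under quantile normalization and without any of 5 libraries, control replicates 1, 2 and 4 and Mdm2 ASO replicates 6-7 and 9, at limma adjusted p = 0.0573 to 0.114. Bche, butyrylcholinesterase, fell on CDAHFD (log2 -0.46, adjusted p = 0.0109) and on HFHC (log2 -0.32, adjusted p = 0.0214, limma), a call lost there without control replicate 5 or Mdm2 ASO replicate 6-7 or 9 (limma adjusted p = 0.0549, 0.0566 and 0.0799). Of 10 lipases and cofactors of neutral lipid, 5 fell on HFHC, among them Mgll, monoacylglycerol lipase (log2 -0.65, adjusted p = 0.0109), and 1 on CDAHFD, Lipa, lysosomal acid lipase (log2 -0.88, adjusted p = 0.00099, limma). Of 11 genes of VLDL assembly, 5 fell on HFHC, among them Mttp, the microsomal triglyceride transfer protein (log2 -0.38, adjusted p = 0.00311), and Cideb (log2 -0.62, adjusted p = 0.0012, limma), whose call was lost in 1 fit over both diets (adjusted p = 0.072). On CDAHFD 2 of the 11 rose, Apoc3 (log2 0.58, adjusted p = 0.0196) and Dgat1 (log2 0.35, adjusted p = 0.012), and the Apoc3 call was lost without control replicate 2 (limma adjusted p = 0.0574). When libraries were scaled to secreted hepatocyte genes, 0 of the 5 hydrolases, 0 of the 5 lipases and 2 of the 5 VLDL genes kept their call on HFHC. Mttp was among the VLDL genes that lost it (log2 -0.25, limma adjusted p = 0.211).

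The receptors that return carboxylesterases and other proteins to the endoplasmic reticulum, Kdelr1, Kdelr2 and Kdelr3, gave 1 call, a fall of Kdelr1 on HFHC (log2 -0.29, limma adjusted p = 0.03). It was lost under that scaling, under library size scaling and with any of 4 libraries left out, namely Mdm2 ASO replicates 6-7 and 10 and control replicates 2 and 4 (limma adjusted p = 0.0851, 0.0604, 0.0729 and 0.0824). Of 15 regulators of these genes, 2 rose and 3 fell on HFHC, and 3 rose on CDAHFD. Over all genes tested, 16.8% rose and 13.8% fell on HFHC, and 6.12% rose on CDAHFD. With scaling to secreted hepatocyte genes, and likewise with library size scaling, 4 of the 5 regulator calls on HFHC and 2 of the 3 on CDAHFD were kept. Nr1h3, the oxysterol receptor LXR alpha, rose on HFHC (log2 1.24, adjusted p = 5.48e-06), and Cebpa, a bZIP factor of hepatocytes (log2 -0.46, adjusted p = 0.00423), fell, by limma. The Cebpa call was lost with scaling to secreted hepatocyte genes (adjusted p = 0.123). Nr1i2 and Nr1i3, the drug-sensing receptors PXR and CAR, did not pass on either diet. Of 15 genes known to respond to these receptors, 1 rose and 4 fell on HFHC, and 2 rose and 2 fell on CDAHFD. Of the 5 calls on HFHC, 2 were kept with scaling to secreted hepatocyte genes and 3 under quantile normalization. Por, the electron donor of cytochromes P450 (log2 0.80, adjusted p = 0.00137), and Alas1, the first enzyme of haem synthesis (log2 0.98, adjusted p = 0.00181), rose on CDAHFD by limma. The 2 that fell there were Cyp3a11 and Ugt1a1. The Cyp3a11 call was lost with scaling to secreted hepatocyte genes (log2 -0.59, limma adjusted p = 0.0668). It was also lost without any 1 of control replicates 1, 2 and 4 and Mdm2 ASO replicates 6, 7 and 8 (limma adjusted p = 0.0534 to 0.0758). The Ugt1a1 call was lost without control replicate 2 (log2 -0.62, limma adjusted p = 0.0839).

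Of 10 pericentral genes, 3 fell on HFHC, among them Glul, glutamine synthetase (log2 -1.16, limma adjusted p = 0.000956). On CDAHFD 1 rose, Oat (log2 0.48, limma adjusted p = 0.0344). That call was lost without a filter, in 1 fit over both diets and without any of several single libraries (limma adjusted p = 0.0519 to 0.211). For 6 of the 10 genes the difference between diets was above 0 and past the threshold. Of these 6, 4 were kept with scaling to secreted hepatocyte genes or to library size. The other 2, Cyp1a2 and Slc1a2, were also lost without a filter (limma adjusted p = 0.0513 and 0.0514), with edgeR and without any of several single libraries, among them HFHC Mdm2 ASO replicate 6-7 (limma adjusted p = 0.165 and 0.167). Among the 4 kept, the Axin2 difference was lost without HFHC control replicate 5 or HFHC Mdm2 ASO replicate 10 (limma adjusted p = 0.0525 and 0.0721). That difference was also lost with replicates 6 and 7 counted as 2 samples and with the replicate block (limma adjusted p = 0.0556 and 0.066). Of 10 periportal genes, 3 fell on HFHC and 2 on CDAHFD. Hsd17b13, a lipid droplet protein, fell on both (log2 -0.88 and -0.68, limma adjusted p = 0.00262 and 0.00134). So did Cyp2f2 (log2 -1.08 and -0.50, limma adjusted p = 0.0313 and 0.0473). Without a filter the Cyp2f2 call on CDAHFD was lost (limma adjusted p = 0.0602). It was also lost with scaling to secreted hepatocyte genes and in 1 fit over both diets (limma adjusted p = 0.073 and 0.141). Leaving out any of several single libraries also removed that call (limma adjusted p = 0.063 to 0.126). The Cyp2f2 call on HFHC was lost in the same way (limma adjusted p = 0.0554 to 0.129).

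The genes outside the family whose profiles were nearest to each member were taken by the root mean square difference over the 17 libraries, each set against its diet's control mean, among 11760 genes. A gene picked in this way shares the member's ASO effect by the choice itself, so the calls given here are no separate result. Nearest to Ces2e were Uck2, a uridine-cytidine kinase, at 0.18, and Ccng1, cyclin G1, at 0.19. Ccng1 rose on both diets (log2 0.62 and 0.83, limma adjusted p = 0.000413 and 0.00192). Nearest to Ces3b was Plk5, a polo-like kinase, at 0.23, which rose on CDAHFD (log2 1.55, limma adjusted p = 0.00127). Ces2a was nearest to Dcxr, dicarbonyl and L-xylulose reductase, at 0.19, and to Mgmt, an O6-alkylguanine DNA repair protein, at 0.20. Nearest to Ces2c were Rhbg, a pericentral ammonium transporter, at 0.35, and Saa2, serum amyloid A, at 0.39, where the root mean square of Ces2c itself was 0.94, the highest of the members. Aadac was nearest to Asgr1, a subunit of the asialoglycoprotein receptor, at 0.058. Among the 10 members, Ces3a and Aadac were the closest pair, at 0.12, Ces2a and Ces2e stood at 0.34, and Ces2c and Ces2e the farthest, at 1.34.

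Markers of other cells moved with the ASO on HFHC, where the members gave 1 rise and 1 fall. On HFHC 6 of 7 myeloid markers rose, with a summed level of 7333 to 8808 counts in Mdm2 ASO and 633 to 996 in control livers. Likewise 4 of 9 macrophage, 4 of 7 lymphocyte, 4 of 6 endothelial, 5 of 7 stellate and 6 of 6 red cell markers rose, the last summing to 11538 to 31405 in Mdm2 ASO and 2603 to 5419.96 in control livers. Of 7 cholangiocyte markers 5 fell, with sums of 1904 to 2737 in Mdm2 ASO and 3662 to 11427 in control livers, and 10 of 13 mitochondrial transcripts fell. On CDAHFD 0 of the 7 cholangiocyte markers passed by limma. At an unadjusted p under 0.05 there were 5, of which Sox9 was below 0 (log2 -0.43, limma unadjusted p = 0.038) and the others above 0. The median log2 fold change of the 7 was 1.05, with sums of 6389.8 to 11376 in Mdm2 ASO and 3481 to 11022 in control livers. The difference between diets, called above 0 for 4 members, was called above 0 for 6 of 7 cholangiocyte markers and 8 of 13 mitochondrial transcripts, and below 0 for 6 of 7 myeloid and 5 of 9 macrophage markers. None of the 11 markers of secreted hepatocyte proteins passed on HFHC by limma (1 at an unadjusted p under 0.05). Their median log2 fold change there was -0.13, with sums of 1647090 to 2409720 in Mdm2 ASO and 1531070 to 1888930 in control livers. Much of these sums was Alb, at 1258950 ± 361923 in Mdm2 ASO and 860716 ± 111313 in control livers (SD, n = 3 and 4). On CDAHFD 1 macrophage and 1 hepatocyte marker fell, 1 stellate and 1 mitochondrial marker rose, and myeloid sums were 729 to 1900.1 in Mdm2 ASO and 833 to 1429 in control livers. Adipocyte markers gave 1 call of 3 tested on HFHC, a rise of Fabp4. Of 4 intestinal markers tested, 3 fell on HFHC and 1 rose on CDAHFD. The 1 pancreatic marker tested did not pass, kidney and lung markers were at 0 to 4.19 counts in sum, and the kidney markers Slc12a1 and Aqp2 were at 0 throughout. The part of these cells in the members' values was not tested.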

How the data were processed

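Liver RNA was extracted with a column kit and made into strand-specific mRNA libraries, per the labels' protocols. Reads were processed with STAR 2.7.10b and featureCounts of Subread 2.0.3 on GRCm39, per the submitters' processing notes. The authors deposited a table per diet with TMM-normalized counts, a scaled signal in which each library's values are whole numbers times 1 constant (100% within 0.001), so reads could be recovered. The tables hold 0 sample columns outside the series. The 18 samples gave 17 libraries, since the columns of HFHC Mdm2 ASO replicates 6 and 7 hold the same values, while other replicates differed in at least 18001 genes.

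The filter kept genes that reached 1 in a number of libraries equal to the size of the smaller group. These were fitted on the scale log2(value + 0.5) by limma 3.58.1 (trend) in R 4.3.3, per diet (17441 genes on HFHC, 16803 on CDAHFD) and as an interaction between diets (16333 genes), with p-values adjusted over all genes tested. edgeR 4.0.16 and DESeq2 1.42.0 on the recovered reads, other scalings, filters and pseudocounts and leaving out each library were alternatives. Simulated data were used to test limma, edgeR and DESeq2 within each diet, and limma alone for the difference between diets. Exon lengths came from GENCODE M21 and promoters from RefSeq, both on GRCm38, matched by identifier and symbol.

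The members and lists were chosen with earlier results of these data known. The text names the members, Mdm2, the tested members of the other carboxylesterases, of the relatives of Aadac and of the KDEL receptors, up to 4 genes of smallest p per list and diet, and the 2 genes nearest to each member, and it gives a part of these. Fabp4, Alb, Sox9, Slc12a1, Aqp2 and, for the difference between diets, Axin2, Cyp1a2 and Slc1a2 were named after their values were seen. One listed hepatocyte marker, given as Tf, matched no symbol, and 1 of the listed regulators is not reported by name here. PCR copies are not independent molecules, so depth limits low genes most.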

Additional observations from a re-analysis of the deposited data

Results flagged for a closer look

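Ces1f in Mdm2 ASO replicate 8 on CDAHFD, at 5306 counts, stood apart from the other 4 libraries of its group, which had 3599.6 to 3871. Its gap to the next library was 0.841 of the group's range. It was the 1 such library in 30 sets of a member and a group, where chance flags about 1 in 20.

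The Mdm2 ASO effect differed between the diets for 4 members, as CDAHFD effect minus HFHC effect on the log2 scale in the interaction test of limma. The differences were 2.02 for Ces2c, 1.29 for Ces3b, 1.24 for Ces1f and 0.51 for Aadac.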

How the results depend on the processing

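The calls of Ces2e on both diets, Ces2c on HFHC, Ces2a and Ces3b on CDAHFD and the Ces2c difference kept direction and threshold under every alternative run. Scaling to secreted hepatocyte genes gave 1232 calls on CDAHFD (2181 as reported) and 2467 for the difference between diets (3832 as reported). On HFHC that scaling gave 2812 rises and 774 falls (2932 and 2399 as reported). Without Mdm2 ASO replicate 9, HFHC had 2132 rises and 1552 falls. Leaving out 1 library gave 1232 to 2283 calls on CDAHFD, with 1232 without control replicate 2 and 1426 without Mdm2 ASO replicate 8, and 3084 to 4029 for the difference. Members that rose on HFHC numbered 2 under quantile normalization and library size scaling, and 1 to 2 leaving out 1 library. Of 17441 genes tested, 2482 rose under quantile normalization and 3392 under library size scaling, against 2932 as reported. Members that rose on CDAHFD numbered 5 with DESeq2 and in 1 fit over both diets, and 3 to 4 leaving out 1 library. With DESeq2, 1455 of 14519 genes tested rose, and in the 1 fit 1323 of 16803 did, against 1028 of 16803 as reported. Members whose difference was above 0 and past the threshold numbered 3 to 5 leaving out 1 library. Among all genes tested, 1263 to 1654 did so in these runs, against 1606 as reported. The cause of these shifts was not tested.

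Rises made up 55.0% of calls on HFHC, against 40.0% under quantile normalization, 69.9% under library size scaling and 78.4% under hepatocyte scaling. They made up 47.1% on CDAHFD, against 62.1% under hepatocyte scaling. Of the calls for the difference, 41.9% were above 0, against 55.4%, 26.6% and 27.7% under those scalings in the same order. The median of all genes on HFHC moved to -0.11 under quantile normalization and 0.13 under hepatocyte scaling.

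Signs turned only in values without a call. Ces1c on CDAHFD was -0.0026 with edgeR and -0.00063 with DESeq2, and -0.093 to 0.10 leaving out 1 library. Ces1d's difference was -0.057 under quantile normalization, -0.0012 under library size scaling and -0.029 to 0.21 leaving out 1 library. Ces1e on CDAHFD was 0.015 under hepatocyte scaling and -0.21 to 0.054 leaving out 1 library. Leaving out 1 library gave -0.14 to 0.19 for Ces2c on CDAHFD and -0.0082 to 0.19 for Ces3b on HFHC. Ces2g on HFHC was 0.013 under hepatocyte scaling, and Ces3a on HFHC was 0.048 under quantile normalization.

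Within a diet the groups shared no replicate numbers. Across diets, same-numbered samples deviated with r of -0.07 to 0.11 over 7 pairs. Differently numbered samples of the same ASO group had r of -0.24 to 0.19. Since these ranges overlap, the values cannot show whether the numbers pair the samples. With the number as a replicate block, 2 members had a difference above 0 past the threshold, Ces3b and Aadac missed the threshold (limma adjusted p = 0.0749 and 0.139), and Ces1d's difference was -0.013. Low counts limit Ces1a, Ces2b, Ces2h and Ces4a among the carboxylesterases tested.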
